A study of Mus musculus with 3 samples.

Results

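The semaphorins and plexins are a family of guidance ligands and their receptors, and their genes were described here in the endothelial cells (ECs) of the adult mouse lung. The members were chosen by name as all genes of the deposited table called *Sema3* to *Sema7*, *Plxna* to *Plxnd*, *Plxdc1* and *Plxdc2*, which gave 31 of 24346 genes: 20 semaphorins, 9 plexins and 2 plexin domain containing genes. The values come from bulk RNA-seq of 1 condition in 3 libraries, called S38, S44 and S52. The cells were isolated from wild-type male C57BL/6J mice aged 6 to 8 weeks, which received a fluorescent antibody to VE-cadherin into the circulation before the lungs were removed and digested with collagenase and dispase. CD31+ cells that lacked the leukocyte antigen CD45 and the lymphatic antigen podoplanin were then sorted by flow cytometry. The labels do not say whether the libraries came from separate mice or how many mice were pooled, so the spread between libraries may be technical. Other organs and stages were not analysed here.

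Semaphorins carry a sema domain that binds the sema domain of a plexin on the receiving cell. Class 3 semaphorins are secreted and mostly reach plexin A receptors through a neuropilin, classes 4 to 6 span the membrane, and class 7 is held by a GPI anchor. Plexins signal through a cytoplasmic GTPase-activating domain that turns off small GTPases of the Ras and Rap family, and they change integrin adhesion and the cytoskeleton. The family is known for axon guidance, and in blood vessels for patterning and for control of junctions and permeability.

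Levels are given in FPKM, sequenced fragments divided by transcript length and by the number of mapped fragments, so they may be set side by side between genes. Genes whose mean over the 3 libraries reached 1 FPKM were called detected, and values are given in the order S38, S44 and S52. No depth is listed beside these values. It was estimated from the spacing of low values at 37980000, 38960000 and 34040000 fragments, so that 3 fragments of a transcript of 2000 bp correspond to 0.0429, 0.0418 and 0.0479 FPKM. With 1 condition no difference between groups could be tested, and an exact paired comparison of any pair of genes over 3 libraries cannot give a two-sided p-value below 0.25. Spread between libraries is therefore given as SD (n = 3) and as ranges. In bulk RNA, fewer cells with a transcript and less transcript per cell cannot be told apart.

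The label of the cells was checked on marker lists, and library S52 stood apart from the other libraries in genes of other cell types. All 8 endothelial markers were detected, with summed levels of 5409, 5991 and 5323 FPKM, and the antigens used for the isolation were high, with *Pecam1* (CD31) at 1168 ± 45.5 FPKM and *Cdh5* (VE-cadherin) at 921 ± 51.5 FPKM (SD, n = 3). Markers of other cells were also present. Summed levels were 1692, 1345 and 38 FPKM for 4 platelet genes, 3778, 3164 and 755 FPKM for 5 alveolar type 2 genes, 2767, 2303 and 401 FPKM for 4 airway genes and 1133, 855 and 179 FPKM for 9 leukocyte genes, 8 of them detected and *Cd3e* at 0 in S52. Most of the leukocyte sum came from *Lyz2*, a lysozyme gene that alveolar type 2 cells also express, at 1047, 780 and 166 FPKM. The other 8 leukocyte genes summed to 85.9, 75.4 and 13.2 FPKM, and of them *Csf1r* was not lowest in S52. For these 4 lists S52 held the lowest sum. The 5 mural genes summed to 115, 60.2 and 111 FPKM and the 4 fibroblast genes to 63.8, 48.3 and 34.6 FPKM. The 4 alveolar type 1 genes summed to 348, 373 and 273 FPKM, mostly *Hopx* at 294, 332 and 201 FPKM. In that list *Hopx* and *Aqp5* (10.5, 7.61 and 3.08 FPKM) were lowest in S52. *Ager* (43.3, 33.4 and 66.0 FPKM) and *Rtkn2* (0.851, 0.149 and 3.07 FPKM) were highest in S52. Of 4 lymphatic endothelial genes 3 were detected. *Lyve1* was at 539, 597 and 390 FPKM, *Flt4* at 23.7, 23.8 and 19.8 FPKM and *Pdpn* (podoplanin) at 2.39, 1.84 and 3.09 FPKM. *Prox1* was not detected, with a mean of 0.301 FPKM. Of 3 mesothelial genes 1 was detected, with all of them at 0 in S52.

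The sorted lung EC fraction held transcripts of most of the family, and 4 semaphorins made up the bulk of it. Of the 31 members, 20 (64.5%) were detected, beside 48.3% of all genes, and 13 were at 10 FPKM or above, beside 25.7% of all genes. The median member had a mean of 5.59 FPKM and the median of all genes was 0.784 FPKM. By role, 11 of 20 semaphorins, 7 of 9 plexins and 2 of 2 *Plxdc* genes were detected. Among the semaphorins these were 4 of 7 in class 3, 2 of 6 in class 4, 1 of 2 in class 5, 3 of 4 in class 6 and the 1 gene of class 7. Across libraries, 19 members reached 1 FPKM in all 3, beside 43.9% of all genes. A further 7 stayed below it in all 3, and 30 members were above 0 in all 3. Of all 24346 genes, 11950, 11678 and 11268 reached 1 FPKM in S38, S44 and S52, and 8324, 8119 and 9923 were at 0. Detection depended on the library most in class 4, where 5, 4 and 2 of the 6 genes reached 1 FPKM in S38, S44 and S52. Several of these values lay at the threshold: in S44 *Sema4a* was at 1.0, *Sema4b* at 1.01 and *Sema4d* at 1.07 FPKM. Without S52, 13 semaphorins were detected in place of 11.

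**Figure D1:**
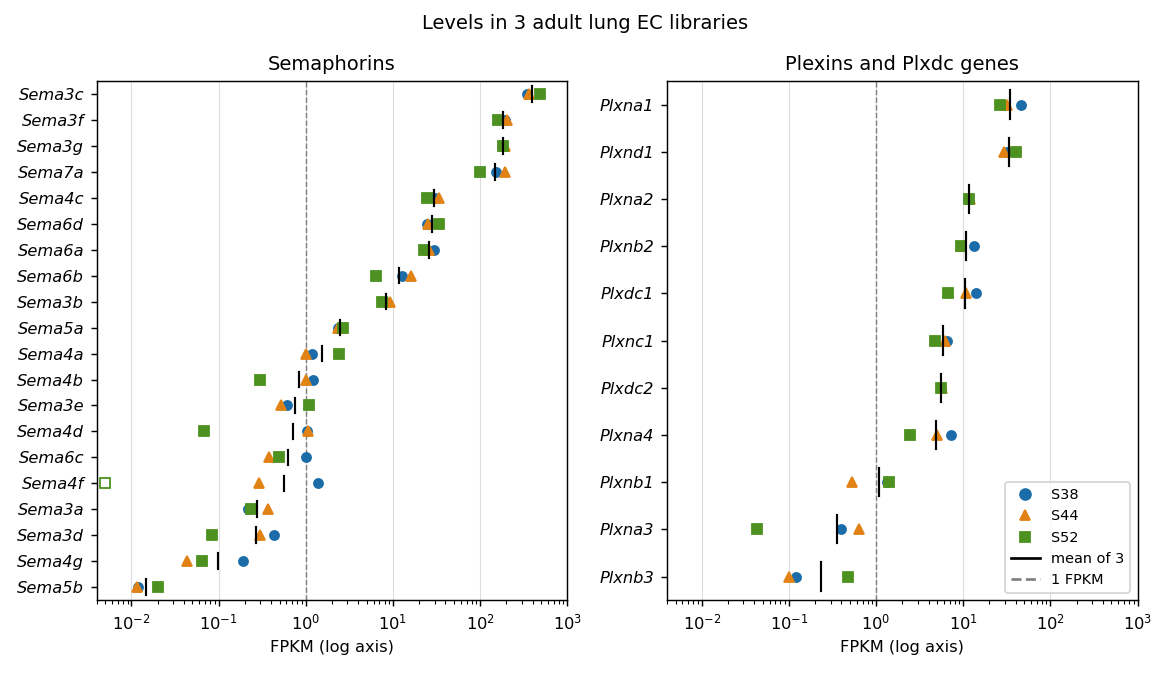
Level of each semaphorin (left) and each plexin or *Plxdc* gene (right) in FPKM on a log axis, with 1 symbol per library (S38, S44, S52), a vertical bar for the mean of the 3 libraries and a dashed line at 1 FPKM; the open symbol is a value of 0. The 4 highest semaphorins lie at 100 FPKM or above in every library, and the highest plexins between 26.2 and 45.8 FPKM.

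**Figure D2:**
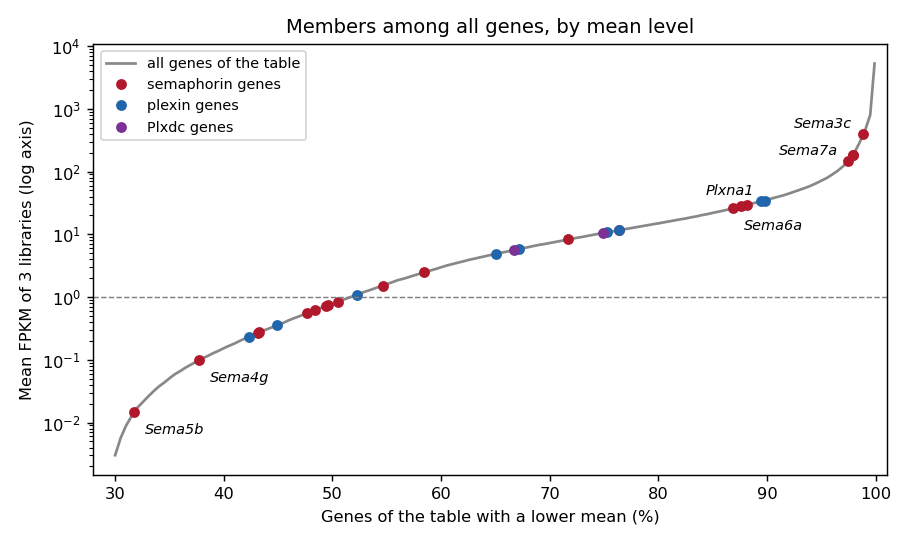
Mean FPKM of the 3 libraries (log axis) against the percent of all genes of the table with a lower mean; the grey line is all genes and the points are the members by kind. *Sema3c* has 98.9% of genes below it, and the next members, *Sema3f* and *Sema3g*, have 97.9%.

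The levels fell into steps that did not overlap between libraries. *Sema3c* had its lowest value at 345 FPKM and the next member, *Sema3f*, its highest at 202 FPKM. The lowest value of the first 4 members was 100 FPKM, in *Sema7a*, and the highest value of any other member was 45.8 FPKM, in *Plxna1*. The lowest value of the first 9 members was 22.5 FPKM, in *Sema6a*, and the highest value below them was 15.9 FPKM, in *Sema6b*. Of the 30 pairs of neighbours in the order of means, 5 had ranges that did not overlap, among them *Sema3b* over *Plxnc1* and *Sema4g* over *Sema5b* below these steps. The ranges of the other 25 overlapped. Overlap of ranges does not use the pairing of genes within a library. Among the 25, *Sema5a* was above *Sema4a* in each library, while *Sema3f* and *Sema3g* changed order between libraries.

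The promoters of members at opposite ends of this range are shown to let the levels be read beside the DNA. RefSeq windows (GRCm38.p6) of 250 bases that end at the base before a transcription start were available for 24 of the 31 members, 35 windows in all. The highest and lowest semaphorin and plexin with a window free of annotated exon bases were *Sema7a* and *Sema3d*, and *Plxnd1* and *Plxna3*. Each is printed 5′ to 3′ on the strand of its gene, with every CG dinucleotide, the target of DNA methylation, in capitals.
Sema7a (chr9:57939862-57940111, + strand): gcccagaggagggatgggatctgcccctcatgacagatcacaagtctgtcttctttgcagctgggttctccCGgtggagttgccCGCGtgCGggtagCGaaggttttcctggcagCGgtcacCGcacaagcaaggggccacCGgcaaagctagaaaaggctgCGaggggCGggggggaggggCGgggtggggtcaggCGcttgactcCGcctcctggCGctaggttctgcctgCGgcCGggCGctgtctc
Sema3d (chr5:12382916-12383165, + strand): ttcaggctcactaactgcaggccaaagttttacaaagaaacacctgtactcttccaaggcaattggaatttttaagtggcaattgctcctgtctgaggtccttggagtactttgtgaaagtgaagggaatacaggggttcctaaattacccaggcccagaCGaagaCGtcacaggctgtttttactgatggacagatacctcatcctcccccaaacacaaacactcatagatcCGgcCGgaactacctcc
Plxnd1 (chr6:115995006-115995255, - strand): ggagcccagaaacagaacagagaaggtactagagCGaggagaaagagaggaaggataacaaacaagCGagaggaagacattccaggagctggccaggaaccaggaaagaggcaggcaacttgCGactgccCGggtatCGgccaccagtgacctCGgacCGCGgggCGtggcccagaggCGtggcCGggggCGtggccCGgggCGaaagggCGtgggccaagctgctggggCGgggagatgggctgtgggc
Plxna3 (chrX:74328816-74329065, + strand): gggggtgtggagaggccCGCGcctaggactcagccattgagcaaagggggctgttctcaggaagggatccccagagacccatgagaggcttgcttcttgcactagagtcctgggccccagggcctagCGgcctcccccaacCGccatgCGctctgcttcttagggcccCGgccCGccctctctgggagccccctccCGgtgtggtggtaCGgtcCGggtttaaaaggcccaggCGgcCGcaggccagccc
*Sema7a*, at a mean of 149 FPKM, had 17 CG in its window, and *Sema3d*, at 0.271 FPKM, had 4. *Plxnd1*, at 33.7 FPKM, had 16 CG, and *Plxna3*, at 0.357 FPKM, had 12. The window of *Sema3c*, which lies within annotated exon sequence and is not printed, held 39 CG, while that of *Sema3g*, at 184 FPKM, held 8, so a high level did not always go with many CG. Windows with at least 50% G and C and an observed CG count of at least 0.6 of that expected from their base content made up 31% of all 32851 windows, 10 of 20 windows of detected members and 5 of 15 windows of members not detected. Some members have several windows, which overlap in part, and methylation was not measured.

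Among the secreted class 3 semaphorins, 3 were among the higher genes of the lung EC table and 3 were not detected. *Sema3c*, a ligand that acts through neuropilins and plexins and is known for its role in the cardiac outflow tract, was at 345, 362 and 489 FPKM, with a mean of 399 ± 78.6 FPKM and rank 276 of all genes. S52 was its highest library, and S38 and S44 lay close together. *Sema3f*, a ligand of NRP2, was at 191, 202 and 160 FPKM (184 ± 21.7 FPKM, rank 510), lowest in S52. *Sema3g*, known as an endothelial class 3 semaphorin, was at 178, 191 and 182 FPKM (184 ± 6.67 FPKM, rank 512). *Sema3f* and *Sema3g* could not be told apart: the ratio of *Sema3f* to *Sema3g* was 1.07, 1.06 and 0.880. *Sema3c* was at 1.81, 1.80 and 3.06 times the level of *Sema3f*.

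The fourth detected member of the class, *Sema3b*, was at 8.19, 9.23 and 7.50 FPKM (8.31 ± 0.871 FPKM). *Sema3e*, the ligand that binds PLXND1 directly without a neuropilin, was at 0.609, 0.526 and 1.10 FPKM, so it passed 1 FPKM in S52 alone and its mean was 0.745 ± 0.310 FPKM. It amounted to 0.0191, 0.0181 and 0.0274 of the level of its receptor *Plxnd1* in the same libraries. *Sema3a*, the prototype of the class and a collapsing factor for axons, was at 0.218, 0.371 and 0.234 FPKM, and *Sema3d* at 0.434, 0.297 and 0.0831 FPKM. All 3 genes were low in each library, yet above 0. The class summed to 724, 766 and 840 FPKM.

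*Sema7a*, the only class 7 semaphorin, which is anchored to the membrane by GPI and binds PLXNC1 and β1 integrins, was at 153, 193 and 100 FPKM (149 ± 46.7 FPKM, rank 609). S52 was its lowest library and S44 its highest, 1.93-fold apart. Its plexin *Plxnc1* was at 6.47, 6.18 and 4.80 FPKM (5.82 ± 0.893 FPKM), so the ligand was at 23.6, 31.2 and 20.9 times its level. The integrin chains that form its other receptor were high: *Itgb1* was at 333, 333 and 363 FPKM and *Itga1* at 92.4, 97.0 and 88.0 FPKM. *Itgb1* was at 51.5, 53.9 and 75.5 times the level of *Plxnc1*.

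The membrane-spanning semaphorins were each below the 4 highest semaphorins. In class 4, *Sema4c*, a ligand of PLXNB2, was at 30.1, 34.1 and 24.5 FPKM (29.6 ± 4.80 FPKM), which was 2.25, 3.57 and 2.62 times the level of *Plxnb2*. The next of the class, *Sema4a*, was at 1.17, 1.0 and 2.41 FPKM. S52 lay apart as its highest library, 2.41-fold above S44. The other 4 were not detected. *Sema4d*, the ligand of PLXNB1 also known as CD100 of lymphocytes, was at 1.03, 1.07 and 0.0680 FPKM, which corresponds to about 169, 180 and 10.0 fragments. It was near the detection threshold in S38 and S44 and close to the counting limit in S52, where the leukocyte markers were also lowest. The part of other cell types in this difference was not tested.

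*Sema4b* was also lowest in S52, with 1.22, 1.01 and 0.295 FPKM. *Sema4f* was at 1.39, 0.293 and 0 FPKM. Against the limit that a value of 0 allows in S52 (3 fragments, 0.0224 FPKM), S38 was 61.8-fold and S44 13.1-fold higher. The limit covers counting error in S52 only and rests on the estimated depth and on the longest annotated transcript (4086 bp). Counting error in S38 and S44, at about 207 and 44.9 fragments, is not included. *Sema4g* was at 0.190, 0.0432 and 0.0638 FPKM. The class summed to 35.1, 37.5 and 27.4 FPKM, of which *Sema4c* alone was 30.1, 34.1 and 24.5 FPKM. The other genes of the class therefore contributed little in any library.

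In class 6, whose members bind plexin A receptors without a neuropilin, *Sema6d* was at 24.5, 25.2 and 34.1 FPKM (27.9 ± 5.37 FPKM) and *Sema6a* at 29.2, 26.0 and 22.5 FPKM (25.9 ± 3.38 FPKM). Their ranges overlapped, with *Sema6d* the higher in S52 and *Sema6a* the higher in S38 and S44. *Sema6a* was at 2.56, 2.19 and 1.92 times the level of its receptor *Plxna2*. *Sema6d* was at 0.534, 0.796 and 1.3 times the level of its receptor *Plxna1*, so the order of ligand and receptor changed in S52. *Sema6b* was at 12.6, 15.9 and 6.32 FPKM (11.6 ± 4.87 FPKM), lowest in S52 by 2.51-fold, and *Sema6c* was not detected at 0.998, 0.376 and 0.493 FPKM. The class summed to 67.3, 67.5 and 63.4 FPKM. In class 5, whose members carry thrombospondin repeats, *Sema5a* was at 2.36, 2.36 and 2.68 FPKM (2.47 ± 0.180 FPKM). *Sema5b*, the lowest member of all, was at 0.0120, 0.0116 and 0.0200 FPKM, about 2.04, 2.03 and 3.06 fragments, which is at the counting limit.

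The plexins were lower than the highest semaphorins, and 2 of them held most of the summed plexin level. *Plxna1*, a receptor for class 3 semaphorins with neuropilins and for *Sema6d*, was at 45.8, 31.6 and 26.2 FPKM (34.6 ± 10.1 FPKM). *Plxnd1*, the plexin known for its role in vessels, was at 31.8, 29.1 and 40.1 FPKM (33.7 ± 5.73 FPKM). The pair changed order: the ratio of *Plxna1* to *Plxnd1* was 1.44, 1.09 and 0.654, with *Plxna1* the higher in S38 and S44 and *Plxnd1* in S52. Together they made 65.8%, 64.2% and 68.7% of the summed level of the 9 plexins.

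Below them, *Plxna2* was at 11.4, 11.9 and 11.7 FPKM, the smallest ratio between libraries among the members (1.04-fold). *Plxnb2*, a receptor of class 4 semaphorins, was at 13.4, 9.55 and 9.38 FPKM (10.8 ± 2.25 FPKM). *Plxna4* was at 7.24, 5.0 and 2.43 FPKM, the widest ratio among the detected members (2.98-fold) and lowest in S52. *Plxnb1*, the receptor of *Sema4d*, was at 1.34, 0.535 and 1.39 FPKM, and here S44 was the library that stood apart. *Plxna3* and *Plxnb3* were not detected. *Plxna3* was at 0.400, 0.629 and 0.0433 FPKM and *Plxnb3* at 0.121, 0.10 and 0.476 FPKM, so S52 was the lowest library of the first and the highest of the second. By subfamily, 3 of 4 plexin A, 2 of 3 plexin B, the plexin C and the plexin D gene were detected, beside 48.3% of all genes.

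*Plxdc1* and *Plxdc2*, also called tumour endothelial marker 7 and its relative, share a short plexin repeat with the plexins and are not plexins themselves. *Plxdc1* was at 13.9, 10.7 and 6.77 FPKM, lowest in S52 by 2.05-fold. *Plxdc2* was at 5.56, 5.74 and 5.48 FPKM and hardly varied, with an SD of 0.132 FPKM.

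Summed over genes, semaphorin transcripts exceeded plexin transcripts. The 20 semaphorins summed to 982, 1066 and 1034 FPKM (1027 ± 42.6 FPKM) and the 9 plexins to 118, 94.6 and 96.6 FPKM (103 ± 12.9 FPKM), a ratio of 8.32, 11.3 and 10.7. *Sema3c*, *Sema3f*, *Sema3g* and *Sema7a* made 88.4%, 89.0% and 90.1% of the semaphorin sum. *Sema3c* alone made 35.2%, 34.0% and 47.3%. The plexin sum leaves out the 14 co-receptors and other semaphorin receptors, among them neuropilins and integrins. Those 14 genes summed to 709, 728 and 637 FPKM. A ratio of transcript levels says nothing of protein, and the semaphorin sum is carried by few genes.

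Genes of the pathway around the family were described by role. The neuropilins, which are the co-receptors of class 3 semaphorins and also bind VEGF, were unequal: *Nrp1* was at 245, 260 and 175 FPKM (227 ± 45.4 FPKM) and *Nrp2* at 5.43, 5.32 and 2.40 FPKM (4.38 ± 1.72 FPKM). *Nrp1* was at 45.1, 48.9 and 72.9 times the level of *Nrp2*, and both were lowest in S52. The neuropilin preferred by *Sema3f* was thus the lower of the pair.

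Of the 14 co-receptors and other semaphorin receptors, 8 (57.1%) were detected, beside 48.3% of all genes. *Erbb2*, a partner of plexin B receptors, had a mean of 4.94 FPKM, *Ptk7*, a partner of plexin A, 3.49 FPKM and *L1cam*, a partner of NRP1, 1.92 FPKM. *Met*, the HGF receptor that associates with plexin B, was not detected at 0.746, 0.598 and 0.185 FPKM. *Tyrobp*, a signalling adaptor of myeloid cells, was at 17.8, 18.8 and 0 FPKM. It counts as detected by its mean alone, and it was listed at 0 in the library with the lowest leukocyte markers. *Trem2*, *Havcr2*, *Cd72* and *Nrcam* had means of 0.297, 0.425, 0.876 and 0.355 FPKM, and *Timd2* was listed at 0 in all 3 libraries.

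The 5 Ras-family genes of the pathway lists were all above 1 FPKM in each library, beside 43.9% of all genes at 1 FPKM or above in each. *Rap1b* and *Rap1a*, substrates of the plexin GTPase-activating domain, had means of 469 ± 30.9 and 182 ± 28 FPKM (SD, n = 3). *Rras*, a small GTPase linked to integrin adhesion, was at 189, 218 and 178 FPKM, *Rras2* at a mean of 14.8 FPKM and *Mras* at 8.88 FPKM. *Mras* was the lowest of them and was highest in S52.

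Of 15 cytoplasmic effectors 13 (86.7%) were detected, beside 48.3% of all genes. The kinases *Fyn* (38.4 FPKM) and *Fes* (20.8 FPKM), the GTPase *Arf6* (34.3 FPKM), the adaptor *Gipc1* (23.1 FPKM) and the actin-oxidizing enzyme *Mical2* (19.9 FPKM) were among the higher ones. Of the collapsin response mediators, *Dpysl2* was at 30.5 FPKM, while *Crmp1* (0.268 FPKM) and *Dpysl4* (0.0176 FPKM) were not detected. All 4 proteases listed for the processing of semaphorins or their receptors were above 10 FPKM, beside 25.7% of all genes at that level. They were *Adam10* (31.7 FPKM), *Furin* (23.6 FPKM), *Adam17* (16.5 FPKM) and *Pcsk5* (11.1 FPKM).

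**Figure D3:**
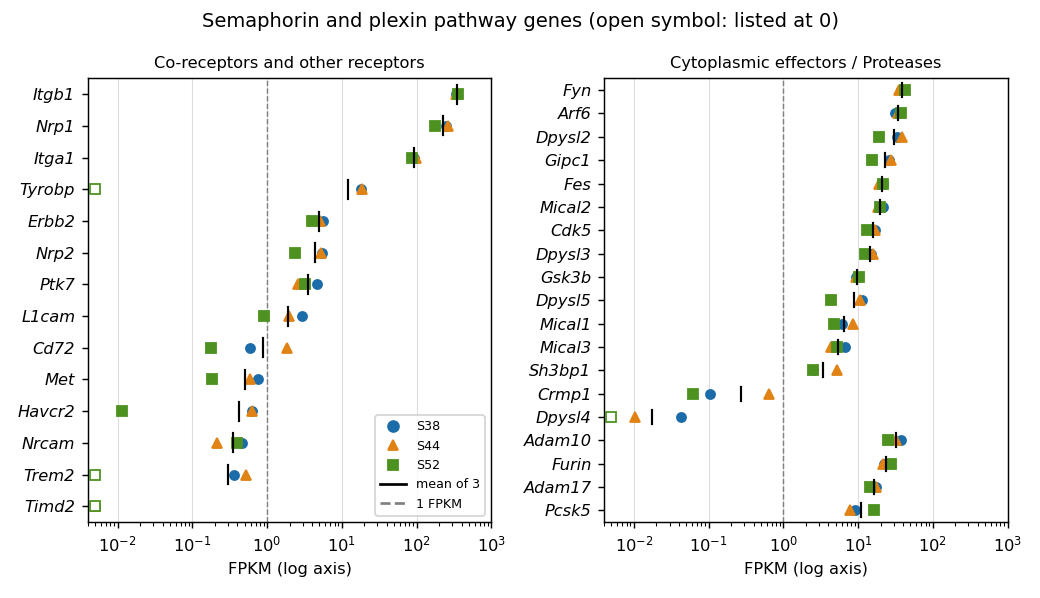
Levels in FPKM (log axis) of pathway genes in the 3 libraries, in panels for co-receptors and for cytoplasmic effectors followed by proteases; vertical bars are means, the dashed line is 1 FPKM and open symbols are values of 0. All 4 proteases and 13 of 15 effectors have means above 1 FPKM, and 8 of 14 co-receptors do, beside 48.3% of all genes.

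The members varied between libraries about as much as other detected genes. The highest library was over 2 times the lowest in 5 of the 20 detected members (25.0%), beside 20.1% of all detected genes, and the median ratio was 1.39 beside 1.40. The 5 were *Sema6b*, *Plxdc1*, *Plxna4*, *Sema4a* and *Plxnb1*. Between S38 and S44 *Plxnb1* was the only one of the 20 to pass 2-fold, beside 4.94% of all detected genes. With S52 left out, where *Plxnb1* also falls below the detection threshold, the count was 0. S52 was the lowest library in 12 of 20 detected members (60.0%), beside 46.3% of all detected genes, and the highest in 6, beside 33.9%.

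The members' ratios of S52 to the other libraries are given beside those of the marker lists. As log2 ratios of FPKM + 1, *Plxna4* was -1.26 against S38 and -0.81 against S44, *Sema7a* -0.60 and -0.94, and *Sema6b* -0.90 and -1.21. The platelet list had medians of -5.01 and -4.67, the alveolar type 2 list -2.37 and -1.79, the airway list -2.04 and -1.95, the leukocyte list -1.89 and -1.44, and the endothelial list 0.13 and -0.05. Members higher in S52 included *Sema4a* (0.65 and 0.77), *Sema3c* (0.50 and 0.43), *Sema6d* (0.46 and 0.42) and *Plxnd1* (0.33 and 0.45). The median of the mural list was 0.56 and 0.93, with all 5 genes above S44, while *Acta2* (-0.18) and *Myh11* (-0.12), the contractile genes of the list, were below S38. The mesothelial list, of genes at low levels, had medians of -0.64 and -1.44. The alveolar type 1 list had medians of 0.03 and 0.12, with *Ager* and *Rtkn2* above both libraries and *Hopx* and *Aqp5* below both. Medians of the lymphatic list were 0.01 and 0.09, with *Prox1* and *Pdpn* above both libraries and *Lyve1* and *Flt4* below both. The part of these cell types in the members' values was not tested.

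**Figure D4:**
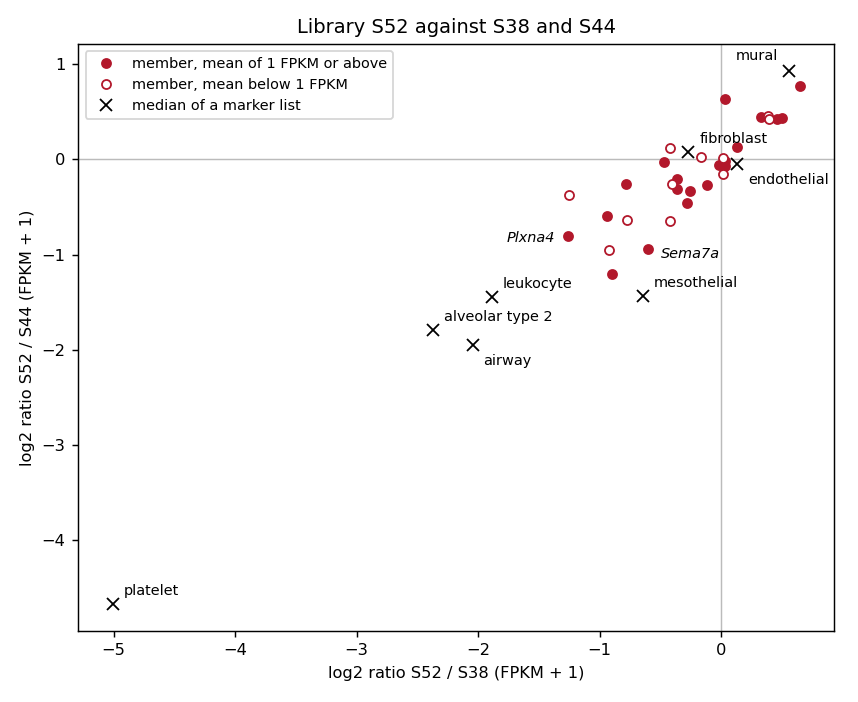
Log2 ratio of FPKM + 1 in S52 against S38 (horizontal) and against S44 (vertical). Points are the 31 members, filled where the mean is at least 1 FPKM. Crosses are medians of marker lists, with the alveolar type 1 and lymphatic lists not drawn. The members lie between -1.26 and 0.65 horizontally, and the medians of the leukocyte, airway, alveolar type 2 and platelet lists lie from -1.89 down to -5.01.

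Some members that lie near each other in the genome had like levels and others did not. Coordinates are those of GRCm38 in GENCODE M21. On chromosome 5, *Sema3d* (chr5:12383385-12588948), *Sema3a* (chr5:13125414-13602565), *Sema3e* (chr5:14025276-14256689) and *Sema3c* (chr5:17574281-17730268), all on the + strand, lie within 5.35 Mb. The first 3 were below 1 FPKM on average and *Sema3c* was the highest member. *Sema3d* and *Sema3a* are 536 kb apart with 0 protein-coding genes between them, and *Sema3e* and *Sema3c* are 3.32 Mb apart with 16 between them. Of the 21 protein-coding genes of the stretch 16 are in the table and 3 were detected: *Sema3c*, the growth factor gene *Hgf* at 13.8 FPKM and *Speer4f1* at 2.27 FPKM.

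On chromosome 9, *Sema3b* (chr9:107597674-107609229) and *Sema3f* (chr9:107681500-107710475), both on the - strand, are 72.3 kb apart, with *Gnai2*, *Slc38a3* and *Gnat1* between them. Their means were 8.31 and 184 FPKM. *Sema7a* (chr9:57940112-57962865, + strand) and *Sema3g* (chr14:31217860-31230352, + strand) have no other member near them. On chromosome X, *Plxnb3* and *Plxna3* are 557 kb apart and neither was detected.

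Some members share exon sequence with other annotated genes, and because the libraries carry no strand information, reads of an overlapping gene on the opposite strand cannot be told apart. *Plxna1* (chr6:89316314-89362620, - strand) overlaps *Gm26811* over 970 bp of exon and *Sema4c* (chr1:36548639-36558349, - strand) overlaps *D430040D24Rik* over 334 bp. *Plxnb1* (257 bp) and *Plxna4* (110 bp) have shorter overlaps of this kind, while *Plxnc1* (115 bp) and *Sema4a* (73 bp) overlap a gene on their own strand. *Plxnd1* (chr6:115954811-115995005, - strand) and the 4 highest semaphorins had none.

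Values of other guidance families are given for scale. Of 22 ephrin and Eph genes 10 (45.5%) were detected, with a median mean level of 0.653 FPKM. Of 15 Slit, Robo, netrin and Unc5 genes 6 (40.0%) were detected, with a median of 0.487 FPKM. The share of all genes was 48.3%. The 31 semaphorin and plexin genes summed to 1146 ± 29.3 FPKM, the ephrin and Eph genes to 495 ± 48.8 FPKM and the Slit, Robo, netrin and Unc5 genes to 201 ± 26.0 FPKM. The ranges of these sums over the 3 libraries did not overlap. The highest of the other families were the arterial ligand gene *Efnb2* at 145 FPKM and the endothelial receptor gene *Robo4* at 91.7 FPKM. *Efnb2*, at 141, 158 and 136 FPKM, overlapped the range of *Sema7a* and lay above it in S52. These are descriptions of 3 libraries, with no test between families.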

How the data were processed

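Poly-A selected RNA of sorted adult lung ECs was sequenced as paired, unstranded reads of 51 bp in 3 libraries of 1 group, assigned from the sample labels. The deposited values are FPKM for each gene symbol, made by the authors on mm10 (GRCm38). The submitters' processing notes name bcl2fastq 2.17, FastQC 0.11.5, Trimmomatic 0.36, TopHat2 2.1.0 and Cufflinks 2.2.1 without roles, while the methods of the study describe counting with other tools, and the tool behind the FPKM is not given in the sources used here. FPKM depends on the transcript length and on the other genes of a library: the columns sum to 1153890, 1603596 and 1419351 FPKM. All 3 adult lung EC columns were used (0 left out).

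Values were read as deposited, with Python 3.11.15, pandas 2.3.3, numpy 2.4.6 and matplotlib 3.10.9. Means, SDs, ranks, sums and shares are on the FPKM scale, and log2 ratios use a pseudocount of 1, which understates changes of low genes. No count test was run, since FPKM are not counts, and with 1 group no comparison was tested. Depth was estimated, with a method picked once the values had been looked at: for 7077 genes with transcripts of 800 to 4000 bp, the step was sought at which FPKM multiplied by length minus 160 bp gives whole fragments. Within a tolerance of 0.15, 78.3% of 364, 75.8% of 484 and 73.1% of 216 low values came out whole. These shares are no independent check, since the step was chosen to bring low values closest to whole numbers. Tested on simulated data of 7077 genes, the largest error was 0.110%. The simulation drew whole fragments and kept most lengths, so its error does not bound that for the deposited values. Limits for 0 use 3 fragments, and fragments of a member are computed on its longest annotated transcript.

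The genes named are all genes of the naming rule, the pathway lists, both other guidance families and the marker lists. Some genes of the pathway lists are not reported here. *Hgf*, *Speer4f1* and the overlapping or intervening genes were named by position. The members and lists were chosen with earlier results of these data known. Positions, exons and overlaps come from GENCODE M21, which holds 23310 of the 24346 symbols, and promoter windows from RefSeq. The alternatives were leaving out each library, other detection thresholds, pseudocounts and 2 rescalings.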

Additional observations from a re-analysis of the deposited data

How the results depend on the processing

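Rescaling each library to a sum of 1000000 FPKM gave a median member level of 4.09 FPKM, a semaphorin sum of 748 FPKM and a plexin sum of 76.4 FPKM, and it lowered the number of members at 10 FPKM or above from 13 to 9. All 3 libraries sum to more than this, so the rescaling lowers every value by construction. Its factors were 0.867, 0.624 and 0.705 for S38, S44 and S52, so ratios between libraries and their order can change as well. The rescaling lowered 13 of 31 member means by more than 1 SD. Rescaling to a common upper quartile moved 0 of 31 beyond 1 SD. A threshold of 0.1 FPKM gave 29 detected members, 18 of them semaphorins, beside 62.2% of all genes, and a threshold of 3 FPKM gave 17 members beside 40.0%. Leaving out each library in turn gave 19 to 21 detected members, and 9 or 10 of the 10 highest members were shared with the reported order. The count of members over 2-fold apart was least stable. It was 13 at a threshold of 0.1 FPKM, 3 at 3 FPKM, 2 as a ratio of FPKM + 1, and 0 to 3 with 1 library left out (0 without S52), which compares fewer libraries. No paired analysis was possible because the libraries described here form 1 group. Depth limits the lowest members, such as *Sema5b*, to a few fragments.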
